A study of Mus musculus with 12 samples.

Results

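The response of Lats2-CKO mouse liver to a high-cholesterol diet was measured by setting 3 arrays from Lats2-CKO mice on a high-cholesterol (Paigen) diet against 3 arrays from Lats2-CKO mice on normal chow. These 6 arrays were chosen by genotype and diet from the titles of the samples, out of 12 arrays in all, and the comparison covered 22180 genes. The other 6 arrays, 3 from wild-type mice on each diet, entered the estimate of the spread and gave the diet change in wild type for comparison. All mice were males, 8 weeks old when the diets began, and the liver was taken after 9 weeks. The chow was listed as free of cholesterol, and the high-cholesterol diet held 1.25% of it. Both groups of the comparison carried the Lats2 mutation, which the labels name both CKO and KO. The labels give neither the deleted part of the gene nor the Cre line or the cells in which it was removed. They call the replicates biological without saying that each array was a separate mouse, so the p-values measure the spread between these arrays.

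Cholesterol synthesis in the liver is switched by the transcription factor SREBP2. When sterols run low in the membrane of the endoplasmic reticulum (ER), SREBP2 is released and turns on the enzymes that make cholesterol, and when sterols are plentiful it is held back. Oxidised sterols activate the nuclear receptor LXR, which turns on sterol export, while bile acids, the end products of cholesterol, repress their own synthesis. Lats2 is a kinase of the Hippo pathway that holds back the growth regulators YAP and TAZ, and the protein has also been linked to the control of SREBP in liver. Paigen-type diets usually hold fat and a bile salt beside cholesterol, but the labels give the cholesterol content only.

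Values are log2 expression per gene, so a difference of 1 is a doubling, and ± after a change is its standard error (SE) from the fit with limma over 12 arrays, with 3 arrays against 3. A gene passed the test at a Benjamini-Hochberg adjusted p under 0.05 over all genes, and only then is it said to have risen or fallen. Over genes, the 6 Lats2-CKO arrays correlated at 0.984 to 0.992 within a diet and at 0.972 to 0.981 between diets. The 5 measured hepatocyte markers ran from 10.6 to 13.4 on these arrays. A level of 3.04, the 30th percentile of all gene values, is called dim below.

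A pair of arrays stood apart from their labels or from the liver profile. Wild-type chow array 3 correlated better with the wild-type high-cholesterol arrays (mean 0.987) than with its own group (0.981). It is not part of the Lats2-CKO comparison but widens the shared spread, so calls are also given without it. On Lats2-CKO chow array 3, genes of adrenal steroid synthesis, looked at after their values were seen, were high. There Cyp11b1, the last enzyme of corticosterone synthesis, read 10.25, Star, which carries cholesterol into mitochondria, 10.08, Cyp11a1, the side chain cleavage enzyme, 8.90, Hsd3b1 8.52 and Cyp21a1 7.41. On the other 11 arrays these 5 genes ran from 2.54 to 3.90, and the receptor for adrenocorticotropin, Mc2r, read 4.32 on the one array against 3.0 to 3.30 on the others. Fabp4, a fatty acid carrier of fat cells, was also highest there, at 9.97 against 7.09 and 8.05 on the other Lats2-CKO chow arrays, while the fat cell hormone Adipoq read 3.06 there against 2.86 and 3.25. The part of this signal in the results was not tested. The counts of calls over all genes and the list medians below are given with and without that array.

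With the diet, 60 of 22180 genes changed in Lats2-CKO liver, which is 0.271% of the genes tested. Of these, 28 rose (0.126%) and 32 fell (0.144%), and the values of both diets did not overlap for any of the 60. The size of change ran from 0.61 to 5.78 with a median of 1.33, and 46 genes differed by 2-fold or more. By the same fit without wild-type chow array 3, 222 genes rose (1.0%) and 246 fell (1.11%), with all 60 among them. Leaving out wild-type chow array 1 or 2 instead gave 74 and 64 genes. Without Lats2-CKO chow array 3, 9 genes passed, 5 of them among the 60. The sizes of change of the 60 genes stayed close, with no shift above 0.30. All 60 kept their sign, which the lack of overlap between the diets made certain. Leaving out 1 other Lats2-CKO array gave 93 and 26 genes for chow arrays 1 and 2, and 5, 10 and 5 for high-cholesterol arrays 1, 2 and 3. Leaving out wild-type high-cholesterol array 1, 2 or 3 gave 93, 31 and 33. Arrays also fell into 2 sets by their median level. The higher set held 2 Lats2-CKO chow arrays and 1 Lats2-CKO high-cholesterol array, and the lower set 1 and 2. Both chow arrays 3 were in the lower set. Diet was thus partly confounded with array set, and with a block for the set 33 genes passed, 26 of them among the 60. With wild-type chow array 3 and Lats2-CKO chow array 3 both left out 337 genes passed, 58 of them among the 60. By overlap alone, 1992 genes had all 3 high-cholesterol values above all 3 chow values (8.98%) and 2336 had them all below (10.5%). These shares, and those without wild-type chow array 3, are the background for the list counts below. Of the 60 genes, 8 were in the 41 lists of pathways and cell types that were examined and 52 were in none. The lists were chosen with earlier results of these data known. The list counts and medians below are therefore descriptions and carry no test.

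**Figure D1:**
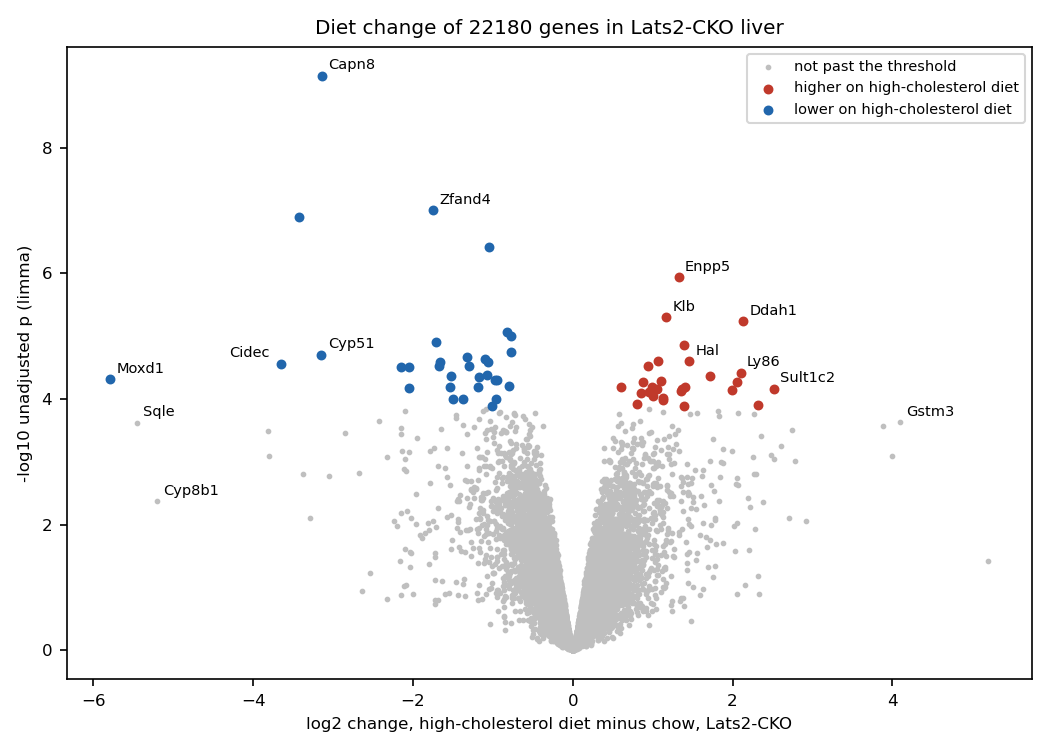
Each point is 1 of 22180 genes, with its log2 change (high-cholesterol diet minus chow, Lats2-CKO) on the horizontal axis and -log10 of its unadjusted limma p on the vertical axis. The 28 genes that rose and the 32 that fell are coloured, and Sqle, Cyp8b1 and Gstm3 lie far out without passing the test over 12 arrays.

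Cholesterol synthesis genes were lower on the high-cholesterol diet, most of all the enzymes after squalene. Cyp51, which removes a methyl group from lanosterol, read 7.33, 8.87 and 7.90 on the 3 chow arrays and 4.53, 5.10 and 5.04 on the high-cholesterol arrays. It fell by 3.15 (SE 0.44, limma adjusted p = 0.0277), and every chow value lay above every value on the diet. Dhcr7, the enzyme of the last step to cholesterol, read 6.49, 6.38 and 7.02 on chow against 4.60, 5.52 and 5.27, and fell by 1.5 (SE 0.25, limma adjusted p = 0.0400). Sqle, the squalene epoxidase and a rate-limiting step of the late pathway, read 7.96, 8.70 and 8.32 on chow against 2.98, 2.85 and 2.79. All 3 of its high-cholesterol values were below the dim level, so the difference of -5.45 ± 1.02 may be understated. Sqle did not pass over 12 arrays (limma adjusted p = 0.0579) but did without wild-type chow array 3 (8.25e-06), where that wild-type array alone read 2.55 against 7.97 and 7.0 in its group.

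Of the 11 measured enzymes from squalene to cholesterol, 10 had lower values on the diet without overlap and 1 had higher ones. Over 12 arrays 2 fell, Cyp51 and Dhcr7, and without wild-type chow array 3 the count was 6. The list median was -1.34, against -0.016 over all genes, and -1.22 without Lats2-CKO chow array 3. Lss, which closes the sterol rings, differed by -2.10 ± 0.37 (limma adjusted p = 0.0511). The exception was Sc5d, the sterol desaturase, named after its values were seen, at 9.78, 9.65 and 9.59 on chow against 10.10, 9.93 and 9.95. In the earlier mevalonate arm 5 of 6 measured members had lower fitted values (median -0.51, and -0.55 without Lats2-CKO chow array 3), and none passed over 12 arrays. Fdps, which makes farnesyl diphosphate, read 7.86, 8.74 and 7.97 on chow and 5.74, 5.25 and 5.55 on the diet, a difference of -2.68 ± 0.64 (limma adjusted p = 0.103, and 0.00408 without wild-type chow array 3). Hmgcs1, the synthase that feeds the pathway, differed by -1.29 ± 0.36 and Ggps1, a branch enzyme, by 0.35 ± 0.21.

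The regulators of the pathway differed from each other in direction. Srebf2, the gene of SREBP2, read 6.73, 7.36 and 7.12 on chow against 5.68, 6.15 and 6.13, a difference of -1.08 ± 0.36. Srebf1, the gene of its relative that drives fatty acid synthesis, read 4.54, 5.36 and 4.99 against 6.26, 6.64 and 6.36, a difference of 1.46 ± 0.47. Neither pair of groups overlapped and neither gene passed the test (limma adjusted p = 0.210 and 0.199). Insig1, which anchors SREBP in the ER, differed by -0.83 ± 0.37 (limma adjusted p = 0.357), and the list of 8 measured regulators had a median of -0.11 (-0.067 without Lats2-CKO chow array 3), with 4 members higher and 4 lower.

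Sterol export genes were higher on the diet. Abcg5, one subunit of the transporter that moves sterols into bile, read 8.85, 8.21 and 8.54 on chow and 10.41, 10.38 and 10.44 on the diet, a difference of 1.88 ± 0.42. The diet values lay close together and above all chow values. Its partner Abcg8 differed by 1.63 ± 0.52 and Abcg1, an exporter of cells such as macrophages, by 1.78 ± 0.55. The limma adjusted p over 12 arrays was 0.0879 for Abcg5 and 0.193 for Abcg8, and without wild-type chow array 3 it was 6.56e-04 and 0.00408. Of the 11 measured LXR targets and export genes, none passed over 12 arrays, and 3 rose without wild-type chow array 3 (Abcg5, Abcg8 and the phospholipid enzyme Lpcat3). Of the 11, 7 were higher without overlap and 1 lower, and the median was 0.49 (0.59 without Lats2-CKO chow array 3). Abca1, another LXR target, chosen after its values were seen, read 10.02, 10.27 and 10.11 on chow against 9.75, 10.05 and 9.99, with overlapping groups.

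In bile acid synthesis, the gene that passed the test was Klb, the co-receptor through which gut FGF15 signals to the liver to lower bile acid synthesis. It read 7.84, 7.79 and 7.87 on chow and 9.07, 8.87 and 9.07 on the diet, and rose by 1.17 ± 0.14 (limma adjusted p = 0.0183). The spread within each diet was much smaller than the gap between them. Cyp8b1, the enzyme that sets the share of cholic acid, read 9.48, 8.81 and 9.26 on chow and 3.21, 4.75 and 3.98 on the diet, a difference of -5.20 ± 1.45. It passed without wild-type chow array 3 (limma adjusted p = 0.00114) and not with it (0.140). Cyp7b1, of the alternative route to bile acids, differed by -2.11 ± 0.49 (limma adjusted p = 0.0963, and 0.0181 without wild-type chow array 3). Cyp7a1, the rate-limiting enzyme of the classic route, varied within the groups, at 9.68, 6.64 and 7.42 on chow against 3.71, 5.84 and 6.28, and its difference of -2.64 ± 1.54 did not pass in either fit (limma adjusted p = 0.505 and 0.133). All 18 genes of this list were measured. Without overlap 5 were higher and 5 lower. The median was 0.03, and single arrays moved it across 0, to 0.15 without Lats2-CKO chow array 3 and to -0.071 without high-cholesterol array 2. Of the 12 transport genes measured, Abcc3, which exports bile acids to the blood, differed by 1.05 ± 0.24 and was the 1 that passed without wild-type chow array 3 (limma adjusted p = 0.0213).

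Among lipid storage genes, Cidec, a protein that enlarges lipid droplets, had the largest change. It read 8.07, 8.82 and 9.18 on chow and 4.52, 5.91 and 4.71 on the diet, and fell by 3.65 (SE 0.53, limma adjusted p = 0.0277). None of the other 20 measured droplet proteins and lipases passed in either fit, among them its relative Cidea (-0.66 ± 0.26) and Hsd17b13, a droplet enzyme of hepatocytes (0.48 ± 0.17), and the list median was -0.13 (-0.074 without Lats2-CKO chow array 3, and -0.33 without chow array 1). Apoa4, an apolipoprotein of triglyceride-rich particles, read 12.28, 12.35 and 12.40 on chow and 10.46, 10.12 and 10.29 on the diet. It fell by 2.05 (SE 0.33, limma adjusted p = 0.0332), while Apoa1 differed by -0.11 ± 0.09 and the list of 13 apolipoprotein genes had a median of 0.04. Without Lats2-CKO chow array 3 that median turned to -0.024. Of 16 fatty acid synthesis genes none passed over 12 arrays. Without wild-type chow array 3 the desaturase Scd1 rose (1.10 ± 0.23 in the fit over 12 arrays) and the elongase Elovl5 fell (-0.66 ± 0.19 in that fit). The 23 genes of fatty acid oxidation had a median of -0.18 (-0.15 without Lats2-CKO chow array 3) with none past the test in either fit.

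**Figure D2:**
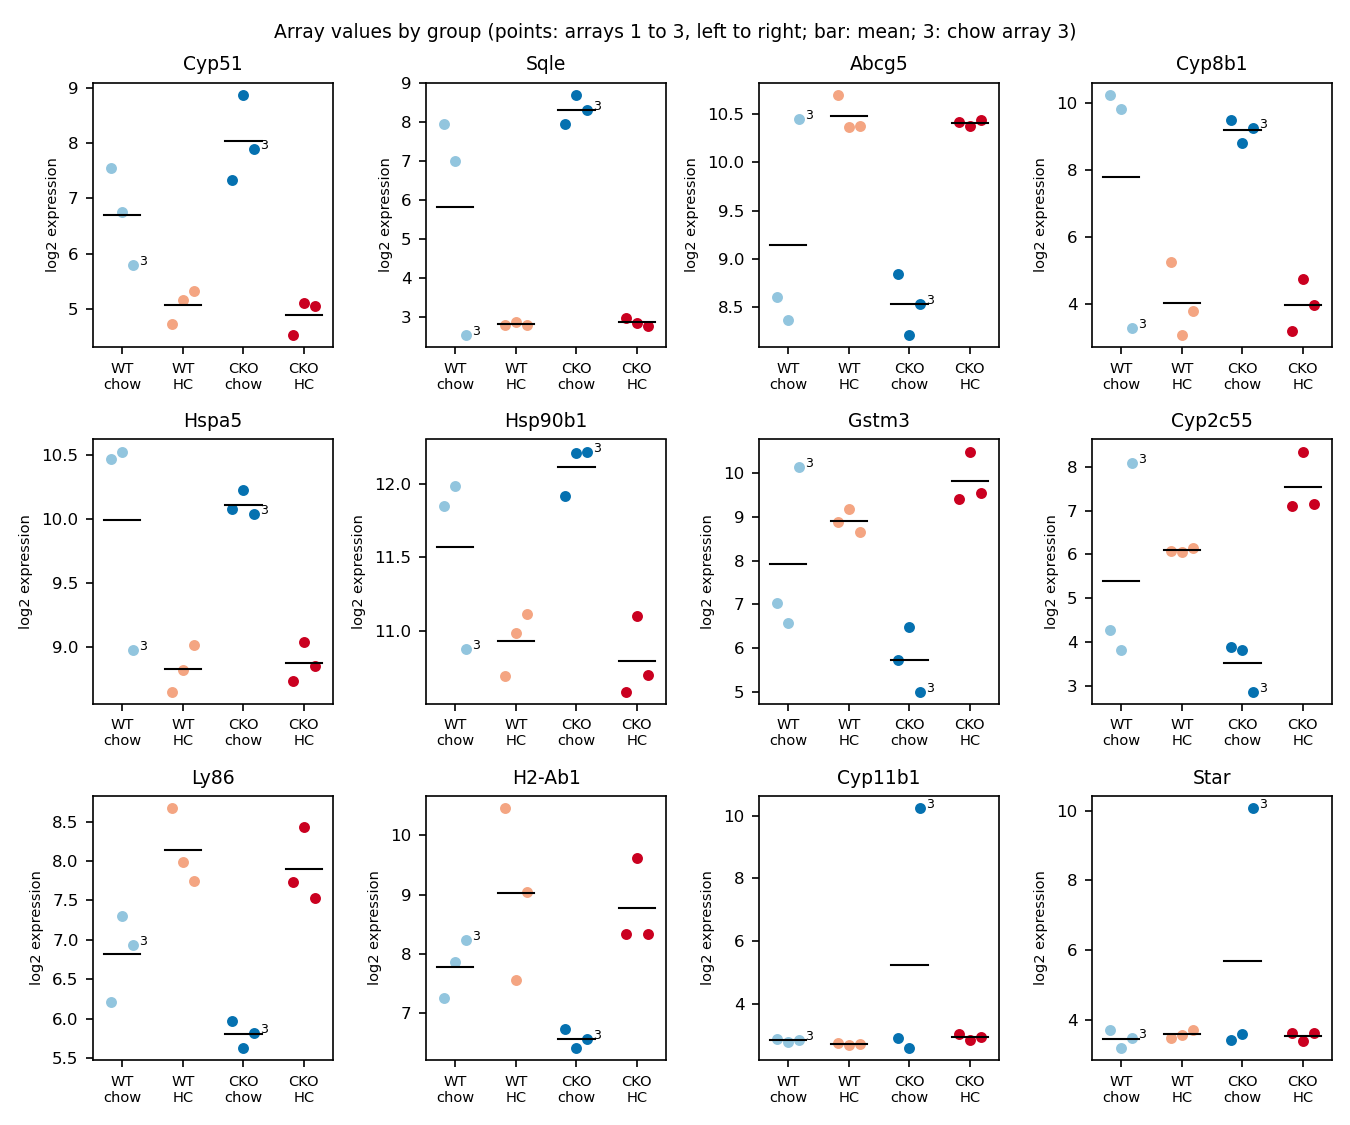
Each panel shows log2 expression of 1 gene on the 12 arrays, by genotype (WT, wild type, or CKO, Lats2-CKO) and diet (chow or HC, high-cholesterol), with a bar at the group mean and chow array 3 marked. In Cyp51, Sqle, Abcg5, Cyp8b1, the chaperones and the detoxification genes the 2 Lats2-CKO groups were apart and wild-type chow array 3 lay on the high-cholesterol side of its own group, while Cyp11b1 and Star were high on Lats2-CKO chow array 3 alone.

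Genes of ER protein folding and of the unfolded protein response were also lower on the diet. This response senses misfolded proteins in the ER and turns on chaperones, in part through the ER stress element, a promoter motif made of CCAAT, 9 bases of any kind and CCACG, which binds ATF6 together with the factor NF-Y. The promoters of 4 genes of this list are shown because they hold the element and their genes were lower in every Lats2-CKO array on the diet. They are the 250 bases before the start of the gene from RefSeq (GRCm38.p6), written 5' to 3' on the strand of the gene, with the letters of the element in capitals. On the opposite strand the element reads CGTGG, 9 bases, ATTGG. The positions are chr2:34771840-34772089 (plus strand) for Hspa5, chr10:86705445-86705694 (minus strand) for Hsp90b1, chr10:75893148-75893397 (plus strand) for Derl3 and chr15:88819396-88819645 (plus strand) for Creld2.
Hspa5: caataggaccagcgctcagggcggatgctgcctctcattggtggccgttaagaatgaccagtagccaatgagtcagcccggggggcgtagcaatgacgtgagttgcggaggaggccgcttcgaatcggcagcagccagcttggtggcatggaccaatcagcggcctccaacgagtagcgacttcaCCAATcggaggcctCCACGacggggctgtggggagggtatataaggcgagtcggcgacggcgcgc
Hsp90b1: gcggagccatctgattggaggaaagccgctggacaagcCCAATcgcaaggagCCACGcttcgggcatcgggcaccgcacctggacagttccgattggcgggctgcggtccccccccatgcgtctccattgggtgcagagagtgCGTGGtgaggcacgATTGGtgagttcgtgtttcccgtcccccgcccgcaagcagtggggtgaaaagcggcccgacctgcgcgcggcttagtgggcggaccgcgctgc
Derl3: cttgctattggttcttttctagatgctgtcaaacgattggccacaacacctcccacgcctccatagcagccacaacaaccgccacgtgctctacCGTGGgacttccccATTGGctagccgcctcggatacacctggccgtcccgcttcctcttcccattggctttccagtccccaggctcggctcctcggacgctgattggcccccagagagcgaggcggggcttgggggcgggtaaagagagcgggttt
Creld2: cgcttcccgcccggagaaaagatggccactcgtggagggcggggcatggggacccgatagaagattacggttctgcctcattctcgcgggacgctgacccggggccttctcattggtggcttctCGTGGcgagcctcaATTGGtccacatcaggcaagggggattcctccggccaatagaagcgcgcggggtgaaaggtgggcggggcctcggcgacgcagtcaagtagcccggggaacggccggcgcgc

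In these windows the element lay at bases 186 to 204 in Hspa5 on the strand of the gene. Hsp90b1 held it at bases 39 to 57, and again at bases 144 to 162 on the opposite strand. Derl3 held it at bases 95 to 113 and Creld2 at bases 125 to 143, both on the opposite strand. Searched on both strands of 300 bases (250 before the start and 50 after it), the element was in 39 of 32851 RefSeq promoters (0.119%) and in 9 of the 24 listed genes that had a promoter in the table (37.5%). A match describes letters and does not show binding. The 9 genes with a match were Hspa5, Hsp90b1, Derl3, Creld2, Calr, Canx, Pdia6, Dnajc3 and Syvn1. On the diet all 9 were lower in fitted value, from -3.80 to -0.23 (median -1.24), and 8 of them fell when wild-type chow array 3 was left out. Of the 15 genes without a match 12 were lower (median -0.42 over the 15), and 4 fell in that fit. The list was written for this response, so the share with an element describes the list and is not a result of the diet.

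Hspa5, the main ER chaperone (BiP), read 10.08, 10.23 and 10.04 on chow and 8.73, 9.04 and 8.85 on the diet, a difference of -1.24 ± 0.33. Hsp90b1, the ER form of a major cytosolic heat shock protein, read 11.91, 12.21 and 12.22 against 10.59, 11.10 and 10.70, a difference of -1.32 ± 0.26. Derl3, of the export of misfolded proteins, read 6.90, 8.58 and 7.15 against 3.57, 3.96 and 3.70, a difference of -3.80 ± 0.83. Creld2, an ER folding factor chosen after its values were seen, read 11.12, 11.51 and 11.16 against 8.21, 8.54 and 7.89. The diets did not overlap in any of these 4 genes, and Derl3 had the largest difference of the list. Over 12 arrays none of the 28 measured members passed (limma adjusted p = 0.128 for Hspa5, 0.0625 for Hsp90b1 and 0.0832 for Derl3). Without wild-type chow array 3, 14 fell, among them these 3 (limma adjusted p = 0.00113, 0.00332 and 0.00113). On that wild-type array Hspa5 read 8.97 against 10.47 and 10.53 in its group.

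Of the 28 members 18 were lower without overlap and 1 was higher, and the median was -0.91 (-0.89 without Lats2-CKO chow array 3). The higher one was Ppp1r15a, which ends the translation block of the stress response, at 4.33, 4.14 and 3.50 on chow against 4.91, 4.70 and 4.47. Like Ppp1r15a, the next 3 genes were chosen with their values known. The stress transcription factor Atf4 differed by 0.01, its target Trib3 by 0.09 and the sensor Atf6 by -0.03.

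Chaperones outside the ER were lower as well. Hspa4, a partner of Hsp70 that swaps its nucleotide, read 10.22, 10.43 and 10.14 on chow and 9.53, 9.37 and 9.51 on the diet, and fell by 0.80 (SE 0.13, limma adjusted p = 0.0332). Its relative Hspa4l, which is in no list, read 7.56, 7.56 and 7.74 against 5.56, 6.14 and 6.16, and fell by 1.67 (SE 0.24, limma adjusted p = 0.0277). Hsph1, the third gene of this nucleotide exchange family, differed by -2.05 ± 0.44 (limma adjusted p = 0.0786, and 0.0310 without wild-type chow array 3). Of 15 measured heat shock genes 1 fell over 12 arrays and 5 fell without wild-type chow array 3, 8 were lower without overlap, and the median was -0.74 (-0.69 without Lats2-CKO chow array 3). With every probe set tested on its own that median was -0.46. The stress-inducible Hsp70 genes went the other way in fitted value, Hspa1a at 0.40 and Hspa1b at 0.96, with overlapping groups, and were chosen after their values were seen.

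Detoxification genes were mostly higher on the diet. Sult1c2, a sulfotransferase, read 4.84, 3.67 and 3.81 on chow and 6.59, 6.54 and 6.74 on the diet, and rose by 2.51 ± 0.41 (limma adjusted p = 0.0332). It was the 1 of 32 measured conjugation enzymes to pass over 12 arrays, and 6 rose without wild-type chow array 3. Gstm3, a glutathione transferase, read 5.71, 6.48 and 5.0 against 9.42, 10.50 and 9.54, a difference of 4.09 ± 0.76 (limma adjusted p = 0.0578, and 9.38e-04 without wild-type chow array 3). Gsta4, which clears products of lipid peroxidation, differed by 2.36 ± 0.47, and Gstm1 by 1.83 ± 0.33. Of the 32 enzymes 12 were higher without overlap and 1 was lower, and the median was 0.30 (0.25 without Lats2-CKO chow array 3). The Gstm genes are close copies of each other, so their probe sets may share signal.

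Of 33 measured cytochrome P450 genes of families 1 to 3, none passed over 12 arrays and 9 rose without wild-type chow array 3. Cyp2c55 read 3.89, 3.82 and 2.88 on chow and 7.10, 8.34 and 7.15 on the diet, a difference of 4.0 ± 0.88 (limma adjusted p = 0.0836, and 7.44e-04 without that array). Cyp3a11, the main drug-metabolising member of its family, read 9.89, 10.33 and 9.35 against 11.03, 11.14 and 11, a difference of 1.20 ± 0.24. Without overlap 16 members were higher and 3 lower, and the median was 0.47 (0.43 without Lats2-CKO chow array 3). The 3 lower ones were Cyp2c37 (-0.61), Cyp2c50 (-0.60) and Cyp2c54 (-0.56), a group of close copies that were named after their values were seen and whose probe sets may share signal. Cyp2e1, also chosen after its values were seen, differed by -0.03 ± 0.08. Genes that are higher in female liver included Cyp3a44 (2.05 ± 0.52) and Cyp2a4 (1.78 ± 0.55). Of the 11 measured, 6 had higher and 5 lower fitted values, and 4 rose without wild-type chow array 3, all of them P450 genes. The lowest was Cyp17a1, a steroid hydroxylase named after its values were seen, at -2.19. The median was 0.52 (0.58 without Lats2-CKO chow array 3) and rested on few genes, at 0.083 without high-cholesterol array 3 and 1.48 with dim genes left out. Of 11 genes that are higher in male liver 8 were lower in fitted value (median -0.40, or -0.48 without Lats2-CKO chow array 3 and -0.22 without high-cholesterol array 3). Among these Cyp7b1, given above, fell without wild-type chow array 3, and Selenbp2, a selenium-binding protein, differed by -2.02 ± 0.80.

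**Figure D3:**
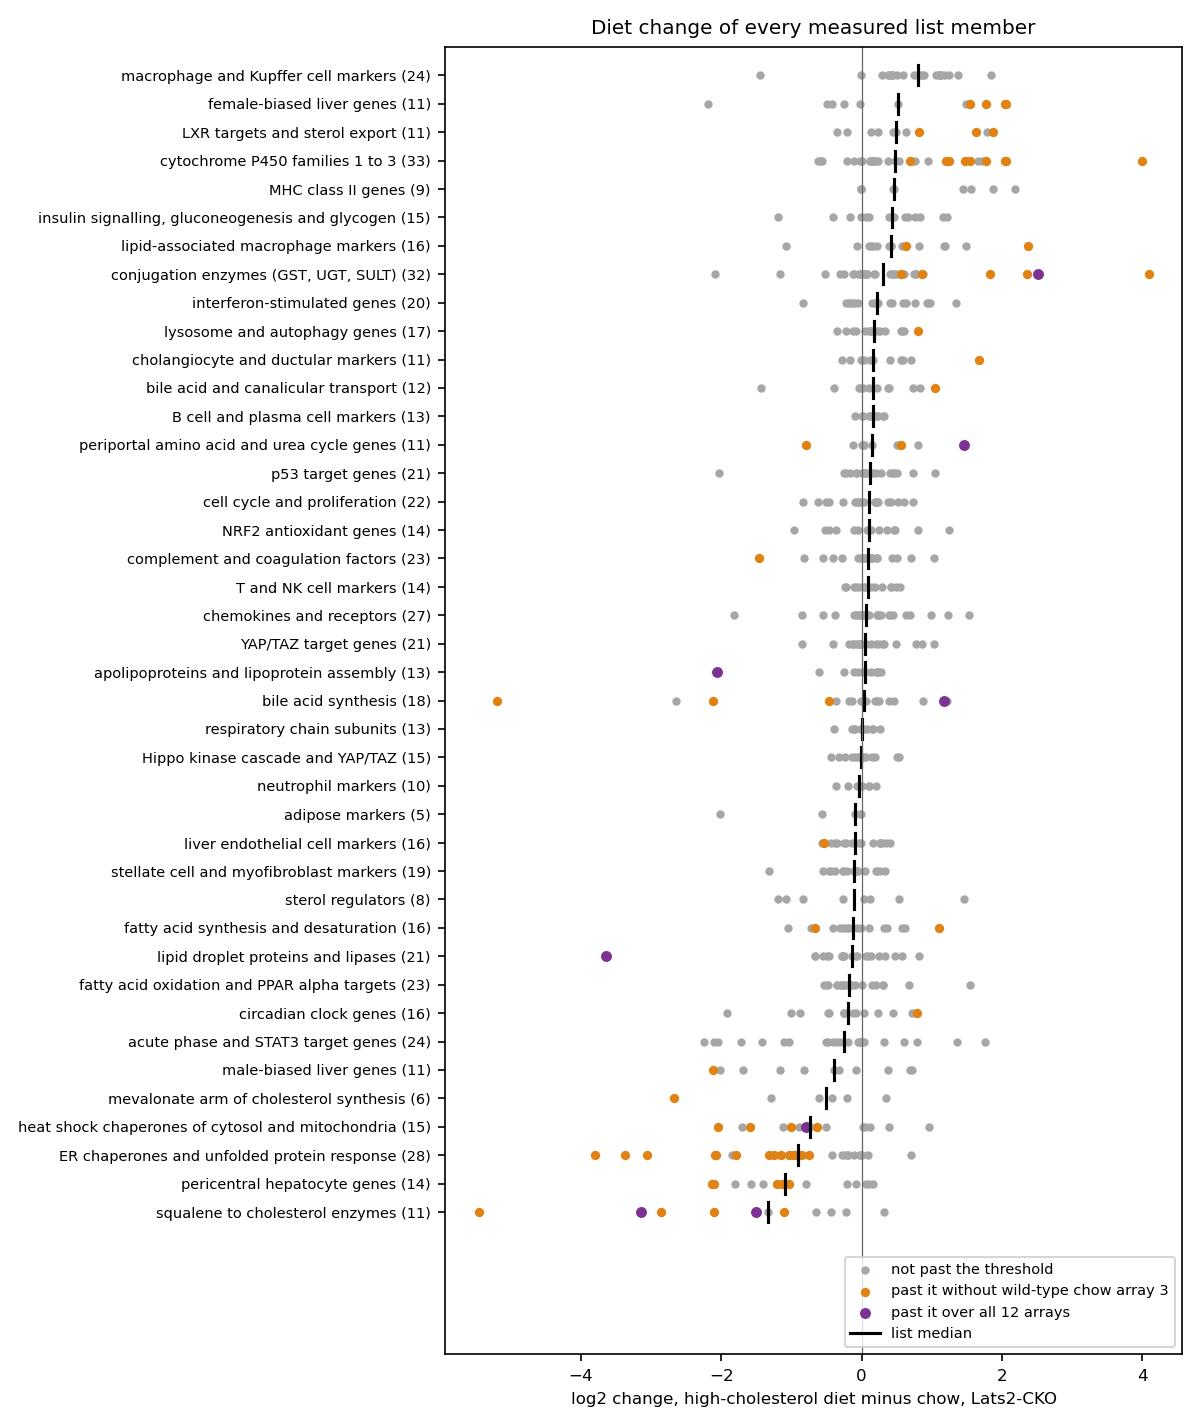
Every measured member of the 41 lists is a point at its log2 change in Lats2-CKO liver (high-cholesterol diet minus chow), with a black bar at the list median and the number of measured members in brackets. The 28 ER genes and the 11 squalene to cholesterol enzymes lie mostly to the left of 0, and macrophage markers mostly to the right.

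Most listed genes that mark the zone around the central vein were lower, and a few of the zone around the portal vein were higher. Oat, an ornithine enzyme of central hepatocytes, read 12.04, 12.15 and 12.06 on chow and 10.42, 9.54 and 9.88 on the diet, a difference of -2.14 ± 0.46. Rhbg, an ammonium transporter, differed by -2.10 ± 0.47, and Glul, the glutamine synthetase of the innermost cells, by -1.14 ± 0.31. None of the 14 pericentral genes passed over 12 arrays (limma adjusted p = 0.0786 for Oat, 0.0852 for Rhbg and 0.140 for Glul). Without wild-type chow array 3, 5 fell, these 3 among them (0.00190, 0.00258 and 0.0345 by limma). Of the 14, 11 had lower and 3 higher fitted values, 9 were lower without overlap, and the median was -1.09 (-1.10 without Lats2-CKO chow array 3). With the probe sets of each gene averaged that median was -0.78. The Wnt feedback genes of this list, chosen after their values were seen, were close to 0, with Axin2 at 0.06, Nkd1 at -0.07 and Znrf3 at 0.16. Axin2 read 3.07 to 3.38 on the 6 arrays, near the dim level.

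Hal, which starts histidine breakdown in portal hepatocytes, read 10.14, 9.36 and 9.64 on chow and 11.12, 11.29 and 11.13 on the diet, and rose by 1.46 ± 0.21 (limma adjusted p = 0.0277). It was the 1 of 11 measured periportal genes to pass over 12 arrays. Without wild-type chow array 3, Hal and Pigr, the receptor that carries antibodies into bile, rose and Tat fell. Without overlap 6 were higher and 1 was lower, the tyrosine aminotransferase Tat (-0.80 ± 0.17), and the median was 0.15 (0.097 without Lats2-CKO chow array 3). Here and for the cell markers below, fewer cells of a type and less RNA per cell cannot be told apart in whole liver.

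Markers of macrophages were higher on the diet, without passing the test gene by gene. Of the 24 measured markers of macrophages and Kupffer cells 22 had higher fitted values. Without overlap 15 were higher and none lower, beside 8.98% and 10.5% of all genes. The median was 0.81 (0.73 without Lats2-CKO chow array 3). None of the 24 passed over 12 arrays or without wild-type chow array 3. In a fit of the 6 Lats2-CKO arrays alone 2 did, beside 265 of all genes (1.19%). Cd5l, a secreted protein of Kupffer cells, read 7.77, 7.63 and 7.61 on chow and 9.00, 9.68 and 9.87 on the diet, a difference of 1.85 ± 0.45 (limma adjusted p = 0.106). C1qa, a complement chain made by macrophages, differed by 0.86 ± 0.24, and Clec4f, the defining receptor of mouse Kupffer cells, by 0.45 ± 0.13. Cd163, a scavenger receptor, read 4.36, 5.43 and 5.53 against 3.19, 3.37 and 4.42 and had the lowest fitted change of the list, chosen after its values were seen.

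Of genes outside the lists, Ly86, the secreted partner of a toll-like receptor homologue on B cells and macrophages, passed. It read 5.96, 5.63 and 5.81 on chow and 7.74, 8.43 and 7.54 on the diet, and rose by 2.10 ± 0.32 (limma adjusted p = 0.0324). Among 9 measured MHC class II genes 4 were higher without overlap, the classical genes H2-Ab1 (2.19 ± 0.60), H2-Aa (1.88 ± 0.69) and H2-Eb1 (1.56 ± 0.62) and the loading factor H2-DMa (1.45 ± 0.57). The 4 had their highest value on high-cholesterol array 2, where H2-Ab1 read 9.61 against 8.35 on both other arrays of that diet, and none passed (limma adjusted p = 0.137 to 0.300). These genes are close copies in part, so probe sets may share signal. Markers of lipid-associated macrophages had a median of 0.42 (0.52 without Lats2-CKO chow array 3). Without wild-type chow array 3, 2 of 16 passed, the tetraspanin Cd9 (0.64 ± 0.14) and the lipase Lpl (2.38 ± 0.66, named after its values were seen). Trem2, their defining receptor, read 3.17, 2.94 and 3.55 on chow against 3.12, 3.20 and 3.74.

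Other cell types gave smaller medians. None of 10 neutrophil markers was apart in the 2 diets (median -0.04). The medians were 0.16 over 13 B cell genes, 0.09 over 14 T and NK cell genes, -0.11 over 19 stellate cell genes and 0.17 over 11 cholangiocyte genes, with none past the test over 12 arrays. Without Lats2-CKO chow array 3 these 5 medians were -0.060, 0.13, 0.094, -0.037 and 0.16. Col1a1, a collagen of scar tissue, differed by 0.22 ± 0.18. Krt23, a keratin of the ductular list, read 3.15, 3.39 and 3.44 on chow against 5.25, 4.78 and 4.99, and passed without wild-type chow array 3 (limma adjusted p = 0.00787) but not with it (0.275).

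Several other lists were examined and held no gene that passed over 12 arrays. Of 15 genes of insulin signalling and sugar metabolism 11 had higher fitted values, 5 were higher without overlap, and the median was 0.43 (0.44 without Lats2-CKO chow array 3). Ppargc1a, a coactivator of fasting metabolism, read 6.12, 6.22 and 5.93 on chow and 7.46, 7.17 and 7.28 on the diet (1.21 ± 0.44, limma adjusted p = 0.255). Pygl, the liver glycogen phosphorylase, differed by 0.61 ± 0.14. Of 24 acute phase genes 17 were lower in fitted value, and the median was -0.25 (-0.14 without Lats2-CKO chow array 3). The metallothionein Mt1 read 8.35, 9.96 and 9.76 on chow against 5.29, 7.67 and 8.39, with groups that overlapped. Of 27 chemokines and receptors 3 were higher and 2 lower without overlap, with a median of 0.06 (0.052 without that array). Ccl5, which draws T cells, differed by 1.54 ± 0.36 and Cxcl1, which draws neutrophils, by -1.82 ± 0.58.

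The median over 20 interferon-stimulated genes was 0.22 (0.29 without Lats2-CKO chow array 3), and it ran from -0.18 without high-cholesterol array 2 to 0.54 without high-cholesterol array 1. Among 14 NRF2 antioxidant genes Nqo1, a quinone reductase, differed by 1.25 ± 0.34 and Srxn1, which repairs peroxiredoxins, by -0.96 ± 0.27. Their median was 0.10 (0.12 without Lats2-CKO chow array 3, and -0.054 without high-cholesterol array 2). None of 13 respiratory chain subunits was apart by diet, and their median was 0.00 (-0.059 without Lats2-CKO chow array 3).

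Genes of the Hippo pathway showed little difference by diet. Lats2 itself read 4.37, 4.76 and 4.79 on chow and 4.62, 4.89 and 4.99 on the diet, with overlapping groups and a difference of 0.19 ± 0.23 (limma adjusted p = 0.779). Where its probe set lies relative to the deletion is not given in the sources used here. Yap1 differed by -0.44 ± 0.20 and Lats1 by -0.23 ± 0.10. None of 15 cascade genes and none of 21 YAP and TAZ targets passed over 12 arrays or without wild-type chow array 3, with medians of -0.01 and 0.06 (-0.0040 and 0.044 without Lats2-CKO chow array 3). The target Ccn2 (CTGF) differed by 0.25 ± 0.38. Cdkn1a, a p53 target that stops the cell cycle, read 4.41, 7.41 and 7.31 on chow against 7.29, 7.56 and 7.41, so that 1 chow array lay far below the other 5. The medians over 22 cell cycle genes and 21 p53 targets were both 0.11 (0.18 and 0.11 without Lats2-CKO chow array 3), and none passed.

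Most of the 60 genes that changed belong to none of these groups. Moxd1, a relative of dopamine beta-hydroxylase in the ER, fell most. It read 10.03, 9.42 and 9.49 on chow and 3.27, 3.30 and 5.01 on the diet, and fell by 5.78 (SE 0.90, limma adjusted p = 0.0332). Capn8, a calcium-dependent protease, read 6.40, 6.66 and 6.14 against 3.31, 3.08 and 3.37, and fell by 3.14 (SE 0.16, limma adjusted p = 1.58e-05, the lowest of all genes). Both genes came near the dim level on the diet, so their falls may be understated. Zfand4, a zinc finger protein with a ubiquitin-like domain, fell by 1.75 (SE 0.14, limma adjusted p = 9.31e-04) from 6.56, 6.61 and 6.99 to 4.83, 4.93 and 5.15. Serpina12 (vaspin), a protease inhibitor linked to insulin action, read 5.02, 5.45 and 4.83 against 3.42, 3.93 and 3.37, and fell by 1.53 (SE 0.23, limma adjusted p = 0.0327). Pgm3, which makes the sugar donor for protein glycosylation, fell by 2.05 (SE 0.30) and Tlcd2, a membrane lipid regulator, by 2.15 (SE 0.32).

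Among the rises, Ddah1, which breaks down the nitric oxide synthase inhibitor dimethylarginine, read 8.40, 9.48 and 8.95 on chow and 11.12, 11.01 and 11.10 on the diet, and rose by 2.14 ± 0.26 (limma adjusted p = 0.0183). Ptgds, a prostaglandin D synthase, read 3.27, 3.64 and 3.56 against 5.59, 5.58 and 6.25, and rose by 2.32 ± 0.40 (limma adjusted p = 0.0475). Coq8a, of coenzyme Q synthesis, rose by 1.72 ± 0.26, the water channel Aqp8 by 1.40 ± 0.19 and the asparaginase Aspg by 1.36 ± 0.22. Enpp5, of the nucleotide pyrophosphatase family, read 6.77, 6.37 and 6.71 on chow and 7.90, 8.05 and 7.87 on the diet, and rose by 1.33 ± 0.14 (limma adjusted p = 0.00509). Casp6, a caspase, rose by 1.13 ± 0.19 and Nod1, a sensor of bacterial cell walls, by 1.13 ± 0.19. Only 5 of the 60 genes passed in every one of 25 alternative settings, namely Capn8, Zfand4, Enpp5, the carboxylesterase Ces4a and the cDNA-named gene E030018B13Rik, the last 2 named after their values were seen.

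**Figure D4:**
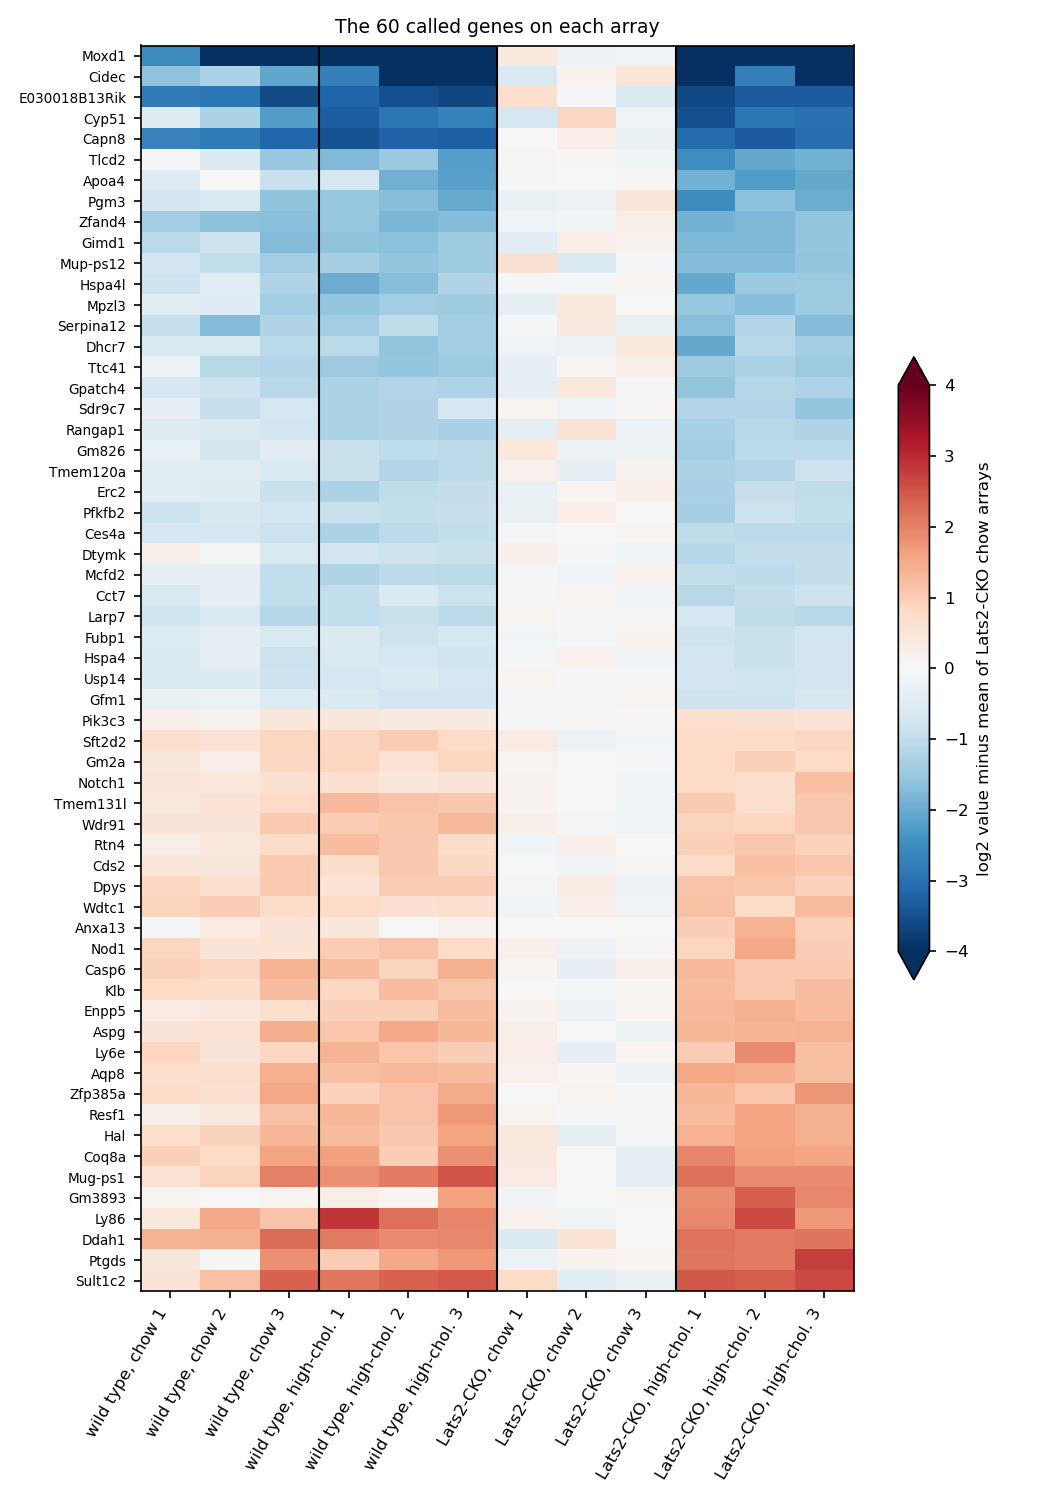
Rows are the 60 genes that changed with diet in Lats2-CKO liver and columns the 12 arrays, with colour for the log2 value minus the mean of the gene on the 3 Lats2-CKO chow arrays (the scale ends at 4 in both directions). The Lats2-CKO chow columns stand apart from the 9 others for 51 of the 60 genes.

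The wild-type arrays show where these genes lay without the mutation. For all 60 genes the wild-type chow mean was between the means of both Lats2-CKO groups, and for 59 of them when wild-type chow array 3 was left out. In 51 of the 60, all 3 Lats2-CKO chow values lay beyond the 9 other arrays on one side, while in 7 of the 60 all 3 Lats2-CKO high-cholesterol values did. Over all genes, these counts were 864 (3.90%) and 148 (0.667%). The 60 genes were chosen with the Lats2-CKO values, so these counts are a description and carry no test. Ddah1 read 10.33, 10.38 and 11.18 on the wild-type chow arrays, nearer to the 11.01 to 11.12 of Lats2-CKO mice on the diet than to the 8.40 to 9.48 of Lats2-CKO mice on chow. Klb read 8.63, 8.57 and 9.05 on wild-type chow, again nearer to the Lats2-CKO diet arrays. Moxd1 read 7.12, 3.22 and 2.98 on wild-type chow, so that array 1 lay between the Lats2-CKO groups and the other two at the diet level.

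In wild type 56 of the 60 genes had the same sign of change, 26 of the 28 that rose and 30 of the 32 that fell. The share of all genes with the same sign was not counted. The 2 array sets were split by diet alike in both genotypes, so this count is a description only. The size was smaller in wild type for all 60, which the choice of genes by their Lats2-CKO change favours. The median change of the 28 was 1.25 in Lats2-CKO and 0.33 in wild type (0.53 without wild-type chow array 3), and that of the 32 was -1.35 and -0.46 (-0.58 without that array). Genotypes were compared by the interaction of genotype and diet. At an unadjusted limma p under 0.05 there were 1247 of 22180 genes, near the share that this threshold passes with no interaction. After adjustment 1 gene passed (0.00451%). This was Capn8, which read 3.71, 3.58 and 3.23 on wild-type chow and 2.90, 3.15 and 3.15 on wild-type high-cholesterol arrays. Its change with diet was more negative in Lats2-CKO than in wild type by -2.70 ± 0.23 (limma adjusted p = 0.00293). The wild-type chow values of Capn8 were already near the dim level of 3.04, so a fall in wild type may be understated. The other 59 genes did not pass the interaction test, which does not show that the genotypes responded alike. Among them Cyp51 changed by -1.63 ± 0.44 in wild type and Cidec by -2.33 ± 0.53. Sqle and Hspa5, which did not pass over 12 arrays in either genotype, gave -3.0 ± 1.02 and -1.17 ± 0.33 in wild type, and -4.65 and -1.67 without wild-type chow array 3. The list median in wild type was -1.02 for squalene to cholesterol enzymes and -0.64 for ER genes (-1.39 and -0.89 without that array). In Lats2-CKO these medians were -1.34 and -0.91. For macrophage markers the median was 0.94 in wild type (0.95 without that array) and 0.81 in Lats2-CKO. For P450 genes it was 0.045 in wild type (0.23 without that array) and 0.47 in Lats2-CKO. The lists were not tested between genotypes.

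**Figure D5:**
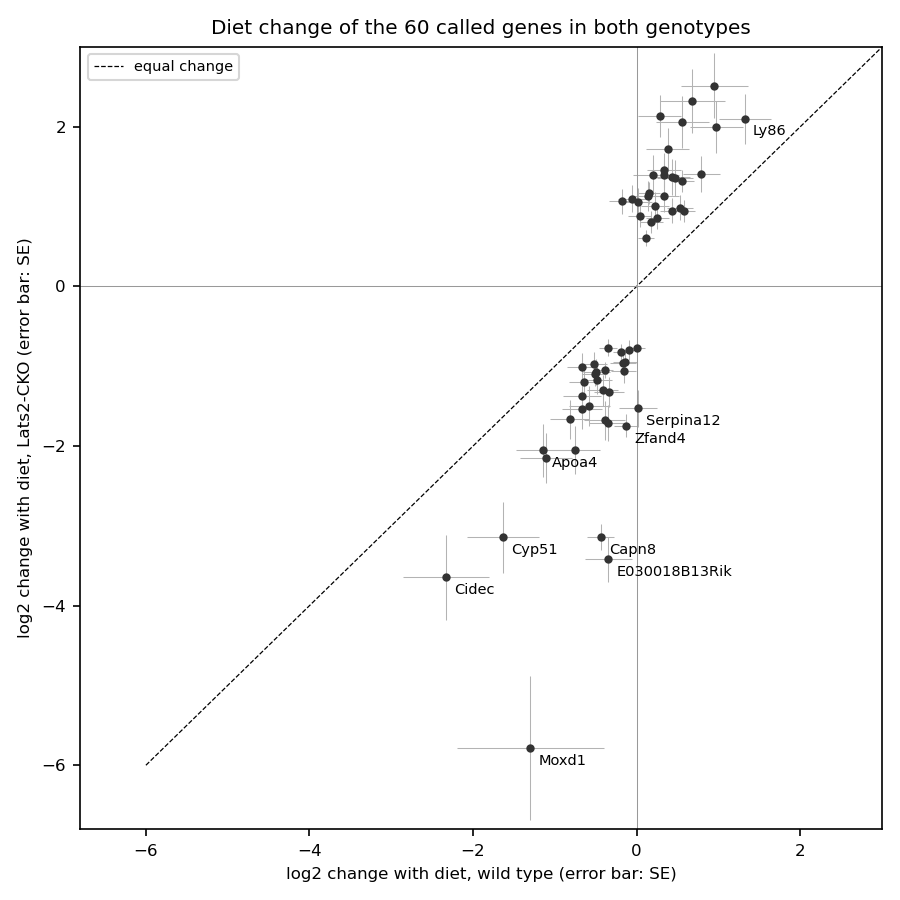
Each point is 1 of the 60 genes, with its log2 change with diet in wild type on the horizontal axis and in Lats2-CKO on the vertical axis, SE as bars over 3 arrays against 3, and a dashed line at equal change. All 60 points lie farther from 0 on the vertical axis, and Serpina12 (0.02 in wild type) and Capn8 (-0.44) lie near 0 on the horizontal one.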

How the data were processed

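Liver RNA (250 ng per array, per the labels) from 4 groups of 3 samples was measured on 12 arrays. The authors deposited log2 expression values per probe set, made with RMA in Partek 6.6 per the submitters' processing notes. RMA includes background correction and quantile normalisation. The deposited array medians still lay in 2 sets, from 3.48 to 3.49 and from 3.42 to 3.43, and the reason was not tested. The analysis used the 23521 of 41345 probe sets that name a single gene. It left out 1814 that name more than 1 and 16010 without a name. Symbols were updated by gene identifier for 23328. The probe set with the highest mean stood for each of the 22180 genes, 1082 of which had more than 1. Deposited log2 values were fitted with limma 3.58.1 (R 4.3.3), with 4 group means over 12 arrays, and the diet change in Lats2-CKO was adjusted by Benjamini-Hochberg over all genes at 0.05. The number of arrays limits the precision, and an exact test of 3 against 3 cannot go below 0.1. The fit was tested on simulated data with 200 changed genes. The simulated noise was independent and normal, without array sets or outlying arrays. It checks the code and does not show how the fit behaves with such arrays. Promoters came from RefSeq (GRCm38.p6).

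Genes named were the 15 largest rises and 15 largest falls that passed without overlap (predicted, clone-named and numbered-cDNA genes left out). Up to 4 members per list with the smallest p were added, and 26 fixed genes of which 22 were measured. Members, lists and array sets were chosen with earlier results of these data known. Of 748 list entries, 679 were measured, and the 669 distinct genes among them were fitted with all others. Alternatives changed the arrays in the fit, blocks, variance prior, array weights, filter, probe set rule and normalisation. Leaving out both chow arrays 3, and the 6 Lats2-CKO arrays less chow array 3, were added after seeing the data. Some genes of the lists are not reported here.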

Additional observations from a re-analysis of the deposited data

Results flagged for a closer look

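The diet change of Capn8 differed between genotypes by the test of the interaction of genotype and diet. The difference, Lats2-CKO minus wild type, was -2.70 ± 0.23 (limma adjusted p = 0.00293, with 3 arrays in each of the 4 groups). Without wild-type chow array 3 it was -2.56 (limma adjusted p = 0.0062). All 3 Lats2-CKO chow values (6.40, 6.66 and 6.14) lay above the 9 other arrays, which ran from 2.90 to 3.71. Those arrays, wild-type chow among them, were near the dim level of 3.04, so a fall in wild type may be understated.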

How the results depend on the processing

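With only the 6 Lats2-CKO arrays fitted 265 genes passed for diet, with array weights 274, with dim genes left out 104 and with a trended, robust prior 98. An array set block (2 sets by array median) gave 33, with 26 of the 60, and no moderation of the variance 6. Settings chosen after seeing the data gave 337 without both chow arrays 3 and 94 in the 6 Lats2-CKO arrays less chow array 3. Leaving out 1 array gave 5 to 468. The replicate block gave 58, of which 45 were among the 60 (Aspg, for one, was not). Same-numbered Lats2-CKO arrays deviated together at r of 0.156, 0.0102 and 0.151, and differently numbered ones at -0.171 to 0.0682. Numbers 1 and 3 lay above that range. The numbers were not taken as pairs in the main fit, and these values do not settle whether they were. Within the array sets all 60 genes kept their sign, which the lack of overlap between the diets made certain. The interaction passed in 2 genes with the array set block, 2 with the trended prior, 3 with dim genes left out, 2 without both chow arrays 3 and 1 to 2 with 1 array left out. With no moderation limma gave 0, and 1152 at an unadjusted p under 0.05, again near the share that this threshold passes with no interaction.

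Of the 41 list medians, 10 took both signs over the alternatives and 31 kept theirs. By the spread between replicates 68 medians moved and 875 did not. Part of the 875 could not have moved. Leaving out a wild-type array, fitting the Lats2-CKO arrays alone or adding the replicate block leaves the Lats2-CKO change of each gene as it was. The 875 therefore do not measure how robust the medians were.

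A few named genes changed sign, none of which had passed the test. Adipoq gave 0.036 with the array set block, 0.00193 with median centring, 0.0809 without Lats2-CKO chow array 2 and 0.0102 without high-cholesterol array 2. Without Lats2-CKO chow array 2, Cxcr2 gave -0.0558, Lep 0.029 and Trem2 -0.0113. Mzb1 gave 0.00182 without high-cholesterol array 2 and Trem2 -0.0615 without array 3. Retn, at -0.57 over 12 arrays, rested on Lats2-CKO chow array 3 and gave 0.0191 in each setting without it. With 1 array left out, the ranges were -0.113 to 0.0809 for Adipoq, -0.0558 to 0.215 for Cxcr2, -0.164 to 0.029 for Lep, -0.172 to 0.00182 for Mzb1, -0.864 to 0.0191 for Retn and -0.0615 to 0.298 for Trem2. The causes were not tested.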

Other observations

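Serpina1d, a protease inhibitor of the antitrypsin family, was looked at after its values were seen. It read 11.79, 4.86 and 4.57 on the Lats2-CKO chow arrays and 11.98, 12.46 and 12.37 on the diet, and 3.77, 3.51 and 11.88 on the wild-type chow arrays. It did not pass (limma adjusted p = 0.334), and its family holds close copies that may share probe signal. F11, coagulation factor XI, read 9.00, 9.07 and 9.03 on Lats2-CKO chow and 7.73, 7.72 and 7.27 on the diet (limma adjusted p = 0.0536, and 0.00498 without wild-type chow array 3). The clock repressor Nr1d1 differed by 0.79 ± 0.19 (limma adjusted p = 0.103, and 0.0221 without that array), and the list of 16 clock genes had a median of -0.19, with or without Lats2-CKO chow array 3. The autophagy gene Gabarapl1 differed by 0.80 and the endothelial receptor Tek by -0.54, neither past the test over 12 arrays.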
